A study of Rattus norvegicus with 14 samples.

Results

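Plin2, Hsd17b13, Acsl1 and Fabp1 are 4 genes by which liver cells hold and handle fatty acids: a coat protein of the lipid droplet, an enzyme that sits on the droplet, an enzyme that activates long-chain fatty acids and the main fatty acid carrier of the hepatocyte cytosol. They were chosen by name, as every probe set of the deposited table that the platform annotation assigns to one of these symbols, which gave 4 of 2670 genes with a single symbol and 8 of 4502 probe sets. Plin2 had 2 probe sets, Acsl1 had 4, and Hsd17b13 and Fabp1 had 1 each.

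The study measured RNA of rat liver on 14 one-colour Affymetrix arrays, each from the left lateral lobe, after feeding chow with 1% orotic acid without restriction or plain chow. Orotic acid is an intermediate of pyrimidine synthesis that induces a reversible fatty liver in rats. The groups were Kyoto rats fed orotic acid for 1, 3 and 14 days (2 arrays each), and Wistar rats on plain chow (3 arrays) or fed orotic acid for 3 days (2 arrays) or 14 days (3 arrays). Kyoto and Wistar are rat strains, the animals came from a commercial breeder, and the labels used here give neither age nor sex. Control Kyoto livers and Wistar livers at day 1, which the protocol names, are not analysed here, so feeding can be set against plain chow only in Wistar. Nothing in the labels says that the arrays of a group came from separate animals, and p-values then measure only the spread between these arrays. Each value below is the normalized signal of a probe set in linear units or its log2, and every difference is in log2.

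The droplet is a store of triglyceride wrapped in a single layer of phospholipid and coated by perilipins, of which Plin2 is the widespread form in hepatocytes. Fatty acids that enter the cell are carried by Fabp1 and joined to coenzyme A by Acsl1, after which they are esterified for storage and secretion or passed to the mitochondria and peroxisomes for oxidation. In rodent liver Plin2, Acsl1 and Fabp1 are known targets of the nuclear receptor PPARalpha, which fatty acids activate, and Hsd17b13 is a droplet-bound member of the short-chain dehydrogenases that is made mostly in liver.

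Sequences of 3 of the genes are shown because their windows hold known regulatory motifs, and because Plin2 and Hsd17b13 had every fed Wistar array below every control array. They are the 250 bases before a start that RefSeq lists on build GRCr8, written 5′ to 3′ on the gene's own strand. The windows are chr5:106229019-106229268 on the minus strand for Plin2, chr14:6056539-6056788 on the plus strand for Hsd17b13 and chr4:104749090-104749339 on the plus strand for Fabp1. The genes themselves span chr5:106202634-106258748, chr14:6056708-6071463 and chr4:104744302-104753119, and Acsl1 spans chr16:52487870-52554110. The windows of Plin2 and Fabp1 thus lie inside their gene's span and that of Hsd17b13 across its first base, so these starts are not the outermost of the spans.
Plin2: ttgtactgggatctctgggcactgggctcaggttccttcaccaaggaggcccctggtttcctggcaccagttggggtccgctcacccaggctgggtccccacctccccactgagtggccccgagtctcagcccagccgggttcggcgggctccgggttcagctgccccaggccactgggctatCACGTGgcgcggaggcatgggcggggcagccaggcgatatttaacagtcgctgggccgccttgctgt
Hsd17b13: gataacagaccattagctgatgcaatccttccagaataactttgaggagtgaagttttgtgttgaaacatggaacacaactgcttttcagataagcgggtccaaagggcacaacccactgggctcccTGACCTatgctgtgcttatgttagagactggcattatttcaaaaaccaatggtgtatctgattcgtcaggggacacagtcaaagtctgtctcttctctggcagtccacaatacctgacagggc
Fabp1: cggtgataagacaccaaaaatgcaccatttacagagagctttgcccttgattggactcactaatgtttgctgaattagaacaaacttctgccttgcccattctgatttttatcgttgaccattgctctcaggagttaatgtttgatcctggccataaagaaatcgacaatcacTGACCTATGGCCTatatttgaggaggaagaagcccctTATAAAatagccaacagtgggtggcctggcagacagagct
Capitals mark matches, on either strand, to 4 motifs that were picked with these sequences in view. In Plin2 they mark CACGTG, the E-box read by basic helix-loop-helix factors, 67 to 62 bases before the start. In Hsd17b13 they mark TGACCT, which is the nuclear receptor half-site AGGTCA on the other strand, 123 to 118 bases before the start. In Fabp1 they mark a match to AGGNCANAGGNCA on the other strand, 77 to 65 bases before the start, and the TATA element TATAAA at 40 to 35 bases. The longer motif is the direct repeat with 1 free base that PPARs and HNF4 bind in other settings, and its match in Fabp1 contains the half-site. Of 33469 RefSeq starts, 0.368% had the direct repeat in a window of this length, 14.1% the half-site, 5.59% the E-box and 12.9% the TATA element. The windows of Acsl1 and of a second Plin2 start held no match to these letters. The matches are a description of the letters, and no binding was measured.

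The probe sets that represent the 4 genes all passed the filter that kept 1909 of 3181 features for testing. A gene was represented by its probe set with the highest mean. Over the 14 arrays the signal of Acsl1 ranged 3.42-fold, that of Hsd17b13 2.88-fold, that of Plin2 2.53-fold and that of Fabp1 2.01-fold. The SD over the 14 arrays was 0.46 for Hsd17b13, 0.46 for Acsl1 and 0.39 for Plin2, above the median of 0.34 over the features tested, and 0.29 for Fabp1, below it. The SD left within groups was between 0.28 and 0.31 for the 4 genes, against a median of 0.32 over the features tested.

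Some arrays stood apart, and the results that rest on them are given with and without them. The array labelled Wistar control 2 was nearest to a Kyoto array (Kyoto day 3 replicate 2, r = 0.96 over the features tested). Its signals of Ces2e and Mst1 were 6.85 (the floor) and 7.33 on the log2 scale, while the other control arrays had 10.09 and 10.76 for Ces2e and 11.10 and 11.07 for Mst1, and the Kyoto arrays had 6.85 for Ces2e on every array. The array Wistar day 14 replicate 3 was nearest to Wistar control replicate 3 (r = 0.97). A lot batch of 1 was recorded for 11 arrays, and none was given for 3, which are 1 array of each Wistar group. Depth has no counterpart on an array, and the number of arrays limits the precision. Of the markers that define hepatocytes, 18 of 19 were measured, none was below the floor on all arrays, and their summed signal lay between 263000 and 284800 on every array. Quantile normalization gives all arrays the same set of values, so a sum of high signals can vary little. The sum is therefore no measure of hepatocyte content.

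Plin2 was lower in fed than in control Wistar livers at both days, but the difference did not pass the threshold over all features. On probe set rc_AA893280_at its signal was 4387, 5905 and 4124 in Wistar controls, 2900 and 2332 in Wistar livers at day 3, and 2519, 3096 and 4083 in Wistar livers at day 14. Every fed array was below every control array, with the highest fed array at day 14 just under the lowest control. In Kyoto livers the signal was 5249 and 4248 at day 1, 3175 and 4447 at day 3, and 3033 and 3642 at day 14. Day 14 lay below day 1 on both Kyoto arrays, as it did for 19.1% of the features tested, while day 3 overlapped both other days.

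In the fit across features, with limma and Benjamini-Hochberg adjustment over the 1909 features tested, Plin2 averaged 11.49 in fed Wistar livers (mean of the means at both days) and 12.21 in control livers. The difference was -0.73 ± 0.21 (SE, 95% interval -1.17 to -0.28, adjusted p = 0.22), which is 1.65-fold lower. It ranked 31 by p among the features. None of the 4 genes passed in this comparison, where 5 features did (0.262% of those tested) and 173 had an unadjusted p under 0.05 (9.06%). In all, 75 features had every fed array below every control array (3.93%), and Plin2 and Hsd17b13 were among them. At single days, every fed array was below the controls for 374 features at day 3 (19.6%) and 121 at day 14 (6.34%), which again held both genes. At day 3 the difference of Plin2 was -0.87 ± 0.26 (adjusted p = 0.251), and at day 14 it was -0.58 ± 0.23 (adjusted p = 0.893). Both days share the 3 control arrays. No feature passed at either day (0% of those tested by limma), while 200 features at day 3 (10.5%) and 99 at day 14 (5.19%) had an unadjusted p under 0.05.

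The size of the Plin2 difference depended on single arrays. Without the array labelled Wistar control 2 it was -0.57 (adjusted p = 0.773), and with Wistar day 14 replicate 3 left out as well it was -0.66. Within the arrays of lot batch 1, whose controls include the array labelled Wistar control 2, it was -0.84. Between the 3 Wistar arrays with no lot batch, 1 of each group and so with no test, it was -0.42, with -0.82 at day 3 and -0.01 at day 14. In an exact two-sided permutation test over the 56 ways to choose the control arrays, for this gene alone and without adjustment, the p was 0.0357. In bulk liver, fewer cells that hold a transcript and less of it per cell cannot be told apart.

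Hsd17b13 was the gene of the 4 with the largest difference between fed and control Wistar livers. Its signal was 1381, 1547 and 1210 in Wistar controls, 583 and 799 in Wistar livers at day 3, and 593, 791 and 928 in Wistar livers at day 14. All 5 fed arrays were below the 3 controls, with no overlap at either day. In Kyoto livers it was 537 and 890 at day 1, 1254 and 948 at day 3, and 898 and 911 at day 14. Both later Kyoto groups lay above day 1, as for 15.5% of the features tested at day 3 and 19% at day 14, and the arrays of day 1 differed more than those of any other group (SD 0.52 in log2).

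The group mean of Hsd17b13 was 9.49 in fed Wistar livers and 10.42 in control livers. The difference was -0.93 ± 0.23 (SE, 95% interval -1.42 to -0.44), or 1.91-fold lower, and ranked 13 by p, with an adjusted p of 0.175 in limma. At day 3 it was -1.01 ± 0.28 (adjusted p = 0.244) and at day 14 -0.86 ± 0.25 (adjusted p = 0.634). Without the array labelled Wistar control 2 the difference of fed and control livers was -0.85 (adjusted p = 0.691), and without Wistar day 14 replicate 3 as well -0.92. With arrays weighted by their quality in limma the same gene passed, at -0.92 with an adjusted p of 0.0392. Under these weights 15 features passed, against 5 in the fit as set. Within lot batch 1, whose controls include the array labelled Wistar control 2, the difference was -1.21. Between the 3 arrays with no lot batch it was -0.49, with -0.60 at day 3 and -0.38 at day 14. The exact permutation test over 56 arrangements gave an unadjusted p of 0.0179, the smallest that they can give.

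**Figure D1:**
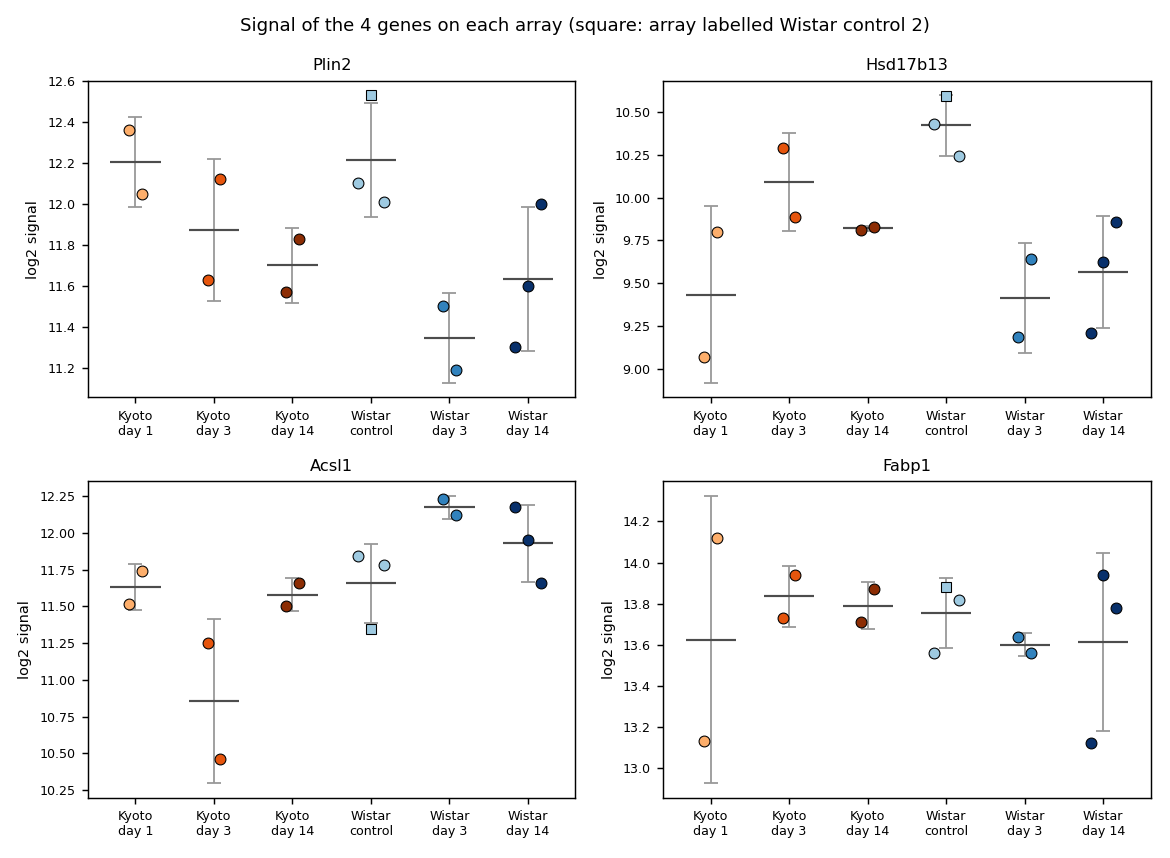
Each panel plots 1 gene, with the log2 normalized signal of each array as a point, the group mean as a bar and the SD as whiskers (n = 2 or 3). The 5 fed Wistar arrays lie below the 3 control arrays for Plin2 and Hsd17b13, and the Kyoto arrays at day 3 are the lowest for Acsl1. The groups of Fabp1 overlap, except that Kyoto livers at day 3 and at day 14 lie above Wistar livers at day 3. The square is the array labelled Wistar control 2.

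Between the strains, Hsd17b13 was higher in Kyoto than in Wistar livers at day 3 on both arrays of each group, as were 28.5% of the features tested, by 0.68 ± 0.31 (adjusted p = 0.391). At day 14 the groups overlapped, with a difference of 0.26 ± 0.28. Over both days the difference of fed Kyoto and fed Wistar livers was 0.47 ± 0.21 (95% interval 0.01 to 0.92, adjusted p = 0.322). Plin2 was also higher in Kyoto livers at day 3 on all arrays, by 0.53 ± 0.28 (adjusted p = 0.458), and differed by 0.07 ± 0.26 at day 14. Over both days its difference was 0.30 ± 0.19 (95% interval -0.11 to 0.71, adjusted p = 0.553). None of these passed the threshold. Across the Kyoto days Plin2 at day 14 minus day 1 was -0.51 ± 0.28 (adjusted p = 0.575), and Hsd17b13 at day 3 minus day 1 was 0.66 ± 0.31 (adjusted p = 0.783), which became 0.29 without Kyoto day 1 replicate 1 and 1.02 without replicate 2. In the comparison of Kyoto day 14 and day 1 a single feature passed (0.0524%), in that of day 3 and day 1 no feature did (0%; 111 had an unadjusted p under 0.05 in limma), and no member passed in either.

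Acsl1 was lower in fed Kyoto than in fed Wistar livers, and this was the only difference among the 4 genes that passed the threshold in the fit as set. On probe set D90109_at its signal was 2440 and 1408 in Kyoto livers at day 3 and 2895 and 3234 at day 14. In Wistar livers it was 4817 and 4447 at day 3 and 4630, 3961 and 3241 at day 14. All 4 Kyoto arrays were below all 5 Wistar arrays, by a wide margin at day 3 and narrowly at day 14. In the remaining groups it was 2944 and 3413 in Kyoto livers at day 1 and 3670, 2619 and 3507 in Wistar controls, which overlapped the day 14 groups of both strains.

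Acsl1 averaged 11.22 in fed Kyoto livers at days 3 and 14 and 12.05 in fed Wistar livers at the same days. The difference was -0.84 ± 0.19 (SE, 95% interval -1.25 to -0.42, adjusted p = 0.0309), which is 1.78-fold lower. It ranked 44 by p among the 62 features that passed (3.25% of those tested), of which 38 were lower in Kyoto livers (1.99%). In 72 features (3.77%) every fed Kyoto array was below every fed Wistar array. An exact permutation of the strain labels within days gave an unadjusted p of 0.0333 over 60 arrangements, where 0.0167 is the smallest possible. The call was lost with the authors' scaling of the arrays in place of quantile normalization (-0.79, adjusted p = 0.0568), with the lot batch as a block (-0.88, adjusted p = 0.0798), and without any of 7 single arrays. The value smallest in size was that without Kyoto day 3 replicate 2, at -0.64 (adjusted p = 0.131). Without the array labelled Wistar control 2 the adjusted p was 0.0234, and with Wistar day 14 replicate 3 left out too the difference was -0.90 (adjusted p = 0.0202).

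The strain difference of Acsl1 was largest at day 3. There it was -1.32 ± 0.29, or 2.5-fold lower in Kyoto livers, and ranked 8 by p, with an adjusted p of 0.0793, while 4 features passed (0.21%) and 404 had both Kyoto arrays below both Wistar arrays (21.2%). Without the array labelled Wistar control 2, which is in neither group but enters the estimate of the spread, 33 features passed. The difference of Acsl1 was then among those that passed (adjusted p = 0.0316). At day 14 it was -0.35 ± 0.26 (adjusted p = 0.81), while 13 features passed (0.681%) and 241 lay below without overlap (12.6%). The difference between these differences, the strain by time interaction, was 0.97 ± 0.39 (adjusted p = 0.854), so the data do not show that the strains differed more at day 3 than at day 14. No feature passed for the interaction (0%), and 98 had an unadjusted p under 0.05 in limma. In the Kyoto series Acsl1 at day 3 minus day 1 was -0.77 ± 0.29 (adjusted p = 0.783), and at day 14 minus day 3 it was 0.72 ± 0.29 (adjusted p = 0.969), each with no overlap of the arrays (12.6% and 18.8% of the features tested in these directions). Without Kyoto day 3 replicate 2 these were -0.38 and 0.33, and without replicate 1 they were -1.17 and 1.12. In day 14 minus day 3 no feature passed (0%), and 88 had an unadjusted p under 0.05 in limma. In Wistar livers Acsl1 in fed minus control livers was 0.40 ± 0.21 (95% interval -0.05 to 0.85, adjusted p = 0.622), 0.25 without the array labelled Wistar control 2, and 0.19 with the authors' scaling of the arrays.

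**Figure D2:**
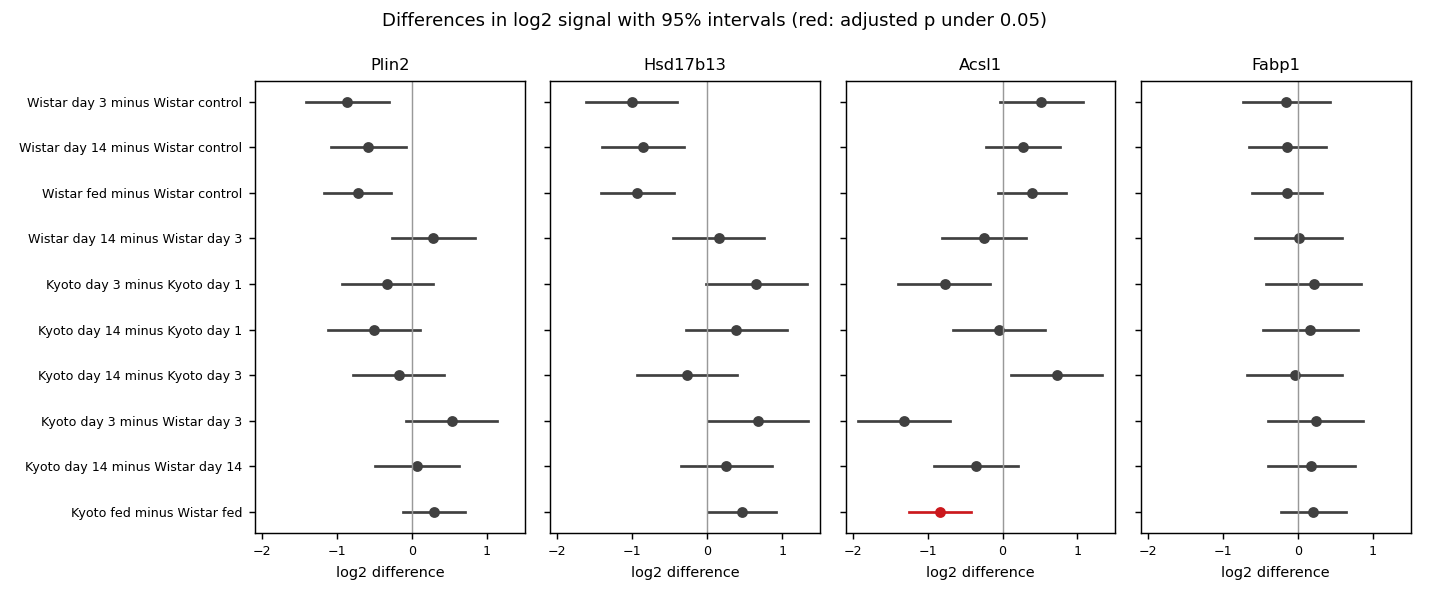
Each row is a comparison and each panel a gene, with the log2 difference as a point and its 95% interval from limma as a line; red marks an adjusted p under 0.05. The only red point is Acsl1 in fed Kyoto minus fed Wistar livers at -0.84, and the intervals of Fabp1 all cover 0.

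Of the other 3 probe sets of Acsl1, rc_AI044900_s_at went with D90109_at, rc_AA893242_g_at in part, and rc_AA893242_at did not. The suffix _s_at marks, in this maker's naming, a probe set that may match more than a single transcript. On rc_AI044900_s_at the signal was 1814 and 2044 in Kyoto livers at day 3 and 2226 and 2991 at day 14, against 4898 and 3751 in Wistar livers at day 3 and 3209, 3765 and 3717 at day 14. No Kyoto array reached the lowest Wistar array. Every probe set was also tested as its own feature, with no filter on low features, in a fit over 4110 features. In that fit the strain difference of fed livers was -0.81 ± 0.13 on rc_AI044900_s_at (adjusted p = 0.0739) and -0.69 ± 0.22 on rc_AA893242_g_at (adjusted p = 0.234). By day, rc_AA893242_g_at had -1.48 ± 0.33 at day 3 and 0.10 ± 0.30 at day 14. On rc_AA893242_at, whose signal lay between 205 and 507 over the 14 arrays, the strain difference of fed livers was -0.01 ± 0.29. The adjusted p of D90109_at in that fit was 0.0907.

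The same split appeared between fed and control Wistar livers. There rc_AI044900_s_at was 0.61 ± 0.15 higher in fed livers (adjusted p = 0.363), with all 5 fed arrays above the 3 controls, which held for 1.83% of the 1909 features, and rc_AA893242_g_at was 0.54 ± 0.24 higher (adjusted p = 0.678). On rc_AA893242_at the difference was -0.46 ± 0.31, with the opposite sign. Over the 14 arrays D90109_at and rc_AI044900_s_at had r = 0.77 and rc_AA893242_g_at and rc_AI044900_s_at r = 0.70, while rc_AA893242_at had r between -0.28 and -0.07 with the others. These r are descriptions over arrays that share groups. Levels of different probe sets are not on a common scale, so only their differences are set side by side.

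**Figure D3:**
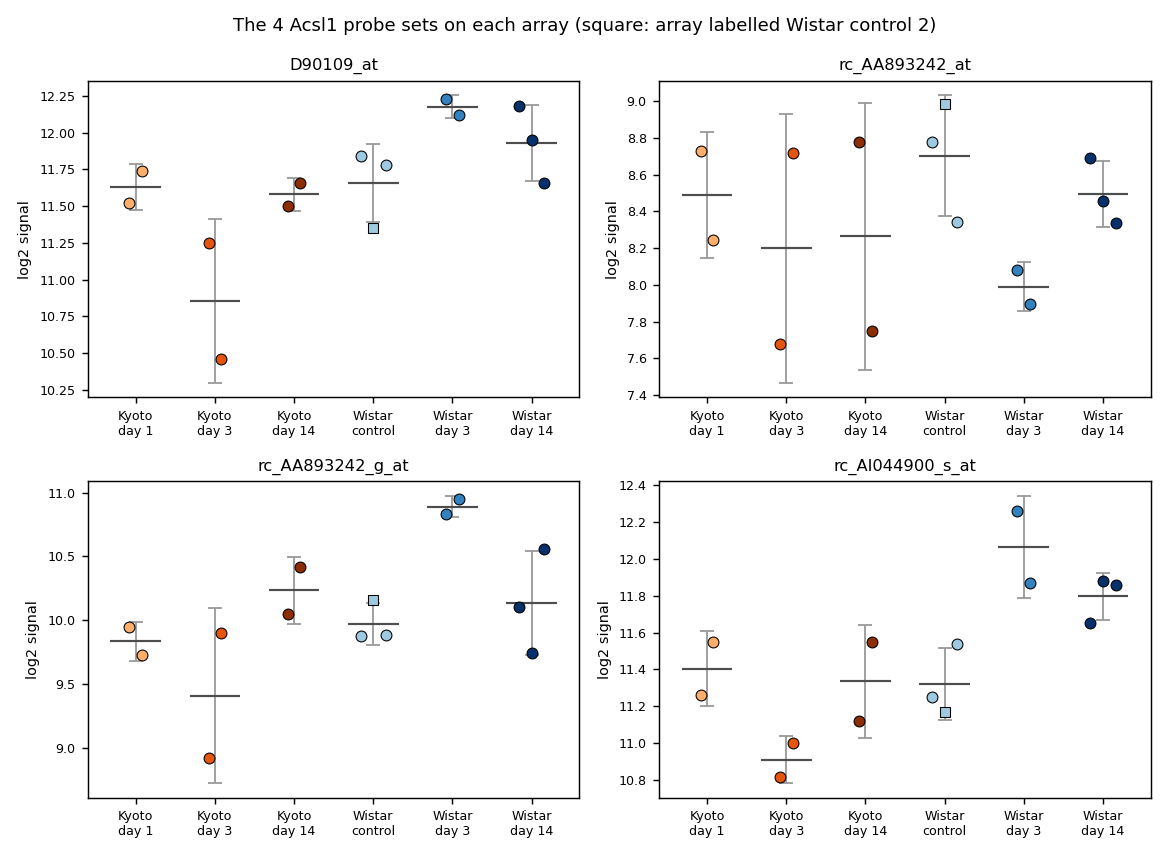
Each panel plots 1 of the 4 Acsl1 probe sets, with the log2 signal of each array as a point, the group mean as a bar, the SD as whiskers and the array labelled Wistar control 2 as a square. Kyoto day 3 is low and Wistar day 3 high on D90109_at, rc_AA893242_g_at and rc_AI044900_s_at, while on rc_AA893242_at Wistar day 3 is the lowest group by mean.

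Fabp1 had no difference larger than 0.24 in size in any comparison. Its signal was 8992 and 17842 in Kyoto livers at day 1, 13623 and 15752 at day 3, and 13426 and 15019 at day 14. In Wistar livers it was 12098, 15125 and 14461 in controls, 12794 and 12098 at day 3, and 8890, 15752 and 14113 at day 14. In each strain the lowest and the highest array were replicates of the same group, day 1 in Kyoto and day 14 in Wistar livers, and between the groups compared only Kyoto and Wistar livers at day 3 did not overlap, as for 28.5% of the features tested. In fed and control Wistar livers the mean was 13.61 and 13.76, a difference of -0.15 ± 0.22 (95% interval -0.61 to 0.32). In fed Kyoto and fed Wistar livers it was 13.82 and 13.61, a difference of 0.21 ± 0.20 (95% interval -0.22 to 0.64, adjusted p = 0.698 in limma). A p that misses the threshold does not show that the groups were alike.

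Ordered by group mean, the genes differed in which groups came first. For Plin2 the order from high to low was Wistar control (12.21), Kyoto day 1 (12.21), Kyoto day 3 (11.88), Kyoto day 14 (11.70), Wistar day 14 (11.63) and Wistar day 3 (11.34), and each neighbouring pair overlapped. For Hsd17b13 it was Wistar control (10.42), Kyoto day 3 (10.09), Kyoto day 14 (9.82), Wistar day 14 (9.57), Kyoto day 1 (9.43) and Wistar day 3 (9.42), where only the arrays of Kyoto day 3 and Kyoto day 14 did not overlap (day 14 lay below day 3 without overlap for 23% of the features tested). For Acsl1 it was Wistar day 3 (12.18), Wistar day 14 (11.93), Wistar control (11.66), Kyoto day 1 (11.63), Kyoto day 14 (11.58) and Kyoto day 3 (10.86), and only the last pair did not overlap. Fabp1 ran between 13.84 in Kyoto day 3 and 13.60 in Wistar day 3. In the moderated F test for any difference among the 6 groups, 36 features passed (1.89%), and the adjusted p was 0.141 for Acsl1, 0.187 for Hsd17b13, 0.278 for Plin2 and 0.974 for Fabp1.

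Taking genes by pairs, the 3 Wistar control arrays had the 3 highest Hsd17b13 signals and the 3 highest Plin2 signals of the 8 Wistar arrays. On the same arrays the 2 livers at day 3 and the first at day 14 had the lowest Plin2 and the highest Acsl1. Among the Kyoto arrays the one with the highest Plin2, Kyoto day 1 replicate 1 at 5249, had the lowest Hsd17b13 at 537, while the next highest Plin2 array, Kyoto day 3 replicate 2 at 4447, was also the next highest for Hsd17b13 at 948. Over the features tested, Kyoto day 1 replicate 1 was the array least like the rest, with a median r of 0.895.

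**Figure D4:**
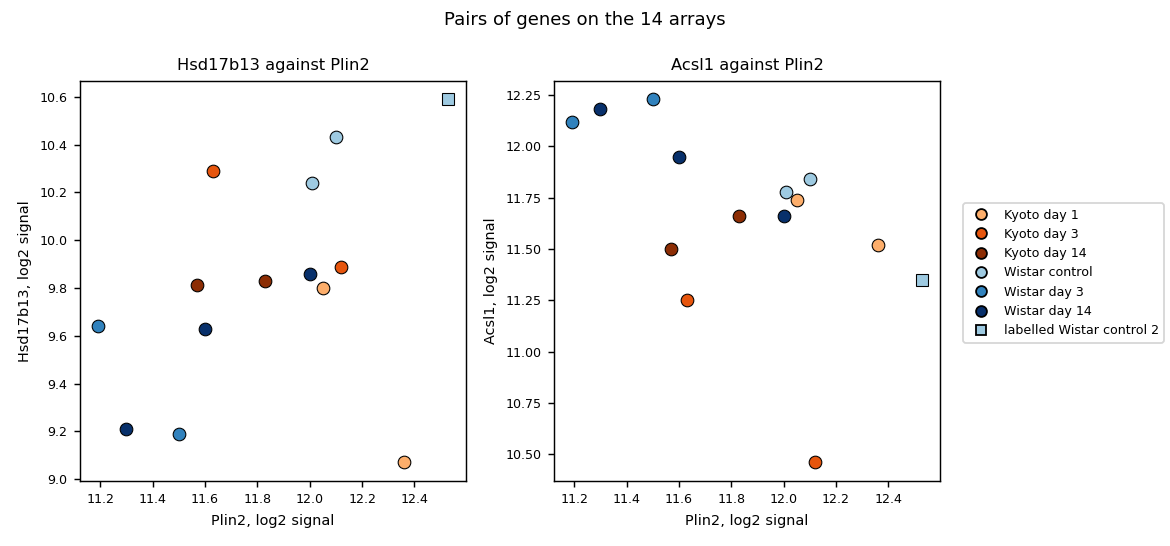
Each point is 1 of the 14 arrays, with the log2 signal of Plin2 across and that of Hsd17b13 (left) or Acsl1 (right) up, coloured by group. The Wistar controls lie above the fed Wistar arrays for both droplet genes, the fed and control Wistar arrays overlap for Acsl1, and Kyoto day 1 replicate 1 is high for Plin2 at 12.36 and low for Hsd17b13 at 9.07.

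Among 1501 other tested genes with a single symbol, those whose log2 signal went most closely with each gene over the 14 arrays differed from gene to gene. For Plin2 they were Ormdl3, a regulator of sphingolipid synthesis (r = 0.90), Gne, an enzyme of sialic acid synthesis (0.843), and Inhbe, an inhibin subunit made in liver (0.836). Ormdl3 kept an r of 0.901 over the 8 Wistar arrays and 0.904 over the 6 Kyoto arrays. For Hsd17b13 they were Cfd, complement factor D (0.873), Rabggtb, a subunit of Rab prenylation (0.82), and AKR1C3l1, an aldo-keto reductase (0.807). Over the Kyoto arrays Rabggtb had an r of 0.259 and AKR1C3l1 0.452, and Cfd had 0.887 over the Wistar and 0.851 over the Kyoto arrays. AKR1C3l1 was at the floor on Wistar day 3 replicate 1 and on Wistar day 14 replicates 1 and 2, so its r rests partly on floored values. For Acsl1 they were Hsd3b5, a steroid dehydrogenase family member (0.845), Hibadh, an enzyme of valine breakdown (0.841), and Enpp2, which makes lysophosphatidic acid (0.834). For Fabp1 they were the sulfotransferases Sult2a1 (0.894) and Sult2a2 (0.847) and Apcs, a plasma pentraxin (0.847). The 99th percentile of r over all candidates was 0.747 for Plin2, 0.70 for Hsd17b13, 0.73 for Acsl1 and 0.734 for Fabp1, and all these arrays share groups and normalization.

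Cfd is also an adipocyte marker, so its values stand beside Hsd17b13. Its log2 signal was 6.88 to 7.90 on the fed Wistar arrays and 8.09 to 8.27 on the control arrays, a difference of -0.69 ± 0.26 (adjusted p = 0.419). The other adipocyte marker tested, Lep, differed by 0.40 ± 0.25 in the same comparison (adjusted p = 0.684). Of 11 adipocyte markers 3 were measured, and their summed signal was 767.3 to 1484 on fed Wistar arrays and 1023 to 1191 on control arrays. The part of adipocyte RNA in the Hsd17b13 values was not tested.

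Genes in the same steps of fatty acid handling were taken from lists, and of the genes named in them only Sqle and Clec4f passed the threshold in any comparison. Medians of differences are given beside those of all features tested, which were -0.03 in fed minus control Wistar livers and 0.03 in fed Kyoto minus fed Wistar livers. Of 9 genes of fatty acid uptake 3 were tested, with medians of -0.07 in fed minus control Wistar livers and -0.08 in fed Kyoto minus fed Wistar livers. Of 9 other binding proteins of fatty acids and acyl-CoA 6 were tested, with medians of -0.21 and 0.01 in the same comparisons. Fabp5, a carrier of skin and macrophages, differed by -0.37 ± 0.21 (adjusted p = 0.637) and 0.38 ± 0.20 (adjusted p = 0.413). Dbi, the acyl-CoA binding protein, differed by -0.29 ± 0.17 (adjusted p = 0.637) in fed minus control Wistar livers.

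Among 16 other acyl-CoA synthetases and thioesterases 3 were tested, with medians of 0.27 in fed minus control Wistar livers and -0.33 in fed Kyoto minus fed Wistar livers. Acsl5, a synthetase of mitochondria and endoplasmic reticulum, was lower on all fed Kyoto than on all fed Wistar arrays, as were 3.77% of the features tested. Its difference was -0.83 ± 0.28 (adjusted p = 0.142), a size like that of Acsl1. Acsl4, which prefers arachidonic acid, differed by 0.61 ± 0.37 (adjusted p = 0.663) in fed minus control Wistar livers. Of 13 genes of droplet coat and structure only G0s2, the inhibitor of the droplet's triglyceride lipase, was tested, and it differed by -0.38 ± 0.40 in fed minus control Wistar livers and by -0.22 ± 0.37 in fed Kyoto minus fed Wistar livers.

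Of 16 short-chain dehydrogenases and other droplet-linked enzymes 10 were tested. In fed minus control Wistar livers 3 were above 0 and 7 below (median -0.12), and in fed Kyoto minus fed Wistar livers 2 were above and 8 below (median -0.35). Sqle, squalene epoxidase of cholesterol synthesis, was the member that passed, at -2.09 ± 0.41 in Kyoto minus Wistar livers at day 14 (adjusted p = 0.0458). The Kyoto mean at day 14 was 7.12, near the floor of 6.85, so the floor may limit the size of this value. Over both days Sqle differed by -1.05 ± 0.31 in fed Kyoto minus fed Wistar livers (adjusted p = 0.0807). Lss, the next enzyme of that pathway, differed by 0.85 ± 0.26 (adjusted p = 0.279) in fed minus control Wistar livers and by -0.93 ± 0.24 (adjusted p = 0.0518) in fed Kyoto minus fed Wistar livers. Of 14 lipases 4 were tested (medians 0.04 and -0.12), and Ces1d, a triglyceride hydrolase of the endoplasmic reticulum, differed by 0.81 ± 0.41 (adjusted p = 0.612) in fed minus control Wistar livers. Of 9 genes of triglyceride assembly Gpam and Dgat1 were tested. Gpam, which adds the first acyl chain to glycerol phosphate, differed by 1.55 ± 0.38 in fed minus control Wistar livers (adjusted p = 0.175) and by -1.09 ± 0.35 in fed Kyoto minus fed Wistar livers (adjusted p = 0.116). This last value is a mean of both days, and the days differed. In Kyoto minus Wistar livers at day 14 both genes were above 0 (median 0.04). At day 3, 1 was above and 1 below (median -0.96).

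Of 35 PPARalpha targets 24 were measured and 19 tested, and none passed. In fed minus control Wistar livers 8 were above 0 and 11 below (median -0.05), and in fed Kyoto minus fed Wistar livers 11 were above and 8 below (median 0.08). They were less balanced in some comparisons with day 14, again with no call. In Kyoto day 14 minus day 1, 18 were above 0 and 1 below (median 0.30, against -0.0019 over all features). Kyoto minus Wistar livers at day 14 had 17 above and 2 below (median 0.18, against 0.02). Wistar day 14 minus day 3 went the other way, with 4 above and 15 below (median -0.20, against 0.01). Kyoto day 1 holds the array least like the rest, replicate 1. Eci1, an enzyme of unsaturated fatty acid oxidation, differed by 0.50 ± 0.18 (adjusted p = 0.405) in fed minus control Wistar livers. Ech1, a related enzyme, was higher on all fed Kyoto arrays than on all fed Wistar arrays, as were 5.08% of the features tested. Its difference was 0.74 ± 0.24 (adjusted p = 0.135). Of 15 PPARs, partners and other lipid sensors 6 were tested, with 3 above and 3 below 0 in each comparison (medians -0.09 and 0.09).

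Markers of other liver cells were read from the same arrays. Clec4f, a Kupffer cell lectin, was 0.82 ± 0.20 higher in fed Kyoto than in fed Wistar livers (adjusted p = 0.0418). Its mean was 10.4 in fed Kyoto, 9.58 in fed Wistar and 10.21 in control Wistar livers. In fed minus control Wistar livers it differed by -0.63 ± 0.22 (adjusted p = 0.386). Of the 6 Kupffer cell markers tested 5 were above 0 in fed Kyoto minus fed Wistar livers (median 0.48). The summed signal of the 7 measured was 6435 to 8781 in Kyoto livers at days 3 and 14, 5164 to 7221 in fed Wistar livers and 6024 to 7413 in controls. Medians in fed Kyoto minus fed Wistar livers were 0.07 over 7 stellate cell markers, 0.60 over 2 endothelial markers, 0.46 over 2 bile duct markers, 0.31 over 2 blood cell markers, 0.11 over 2 adipocyte markers and 0.02 over 18 hepatocyte markers, with no call. In fed minus control Wistar livers they were -0.09, -0.38, -0.01, -0.23, -0.14 and -0.05 in the same order, and -0.11 over the Kupffer cell markers. The 2 bile duct markers tested were Krt8 and Krt18. Whether the signals of these keratins came from bile duct cells was not tested, so their median is no reading of bile duct cells. Krt19, Spp1 and Epcam were not tested, and Epcam was below the floor on all 14 arrays. Whether cell composition has a part in the strain difference of Acsl1 was not tested.

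Plin2 had a second probe set, rc_AA874941_at, whose signal was below the floor of 115.1 on all arrays but Wistar day 14 replicate 3 (158.8), so it gave no second reading of the gene. Averaged with it, Plin2 in fed minus control Wistar livers was -0.32.

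**Figure D5:**
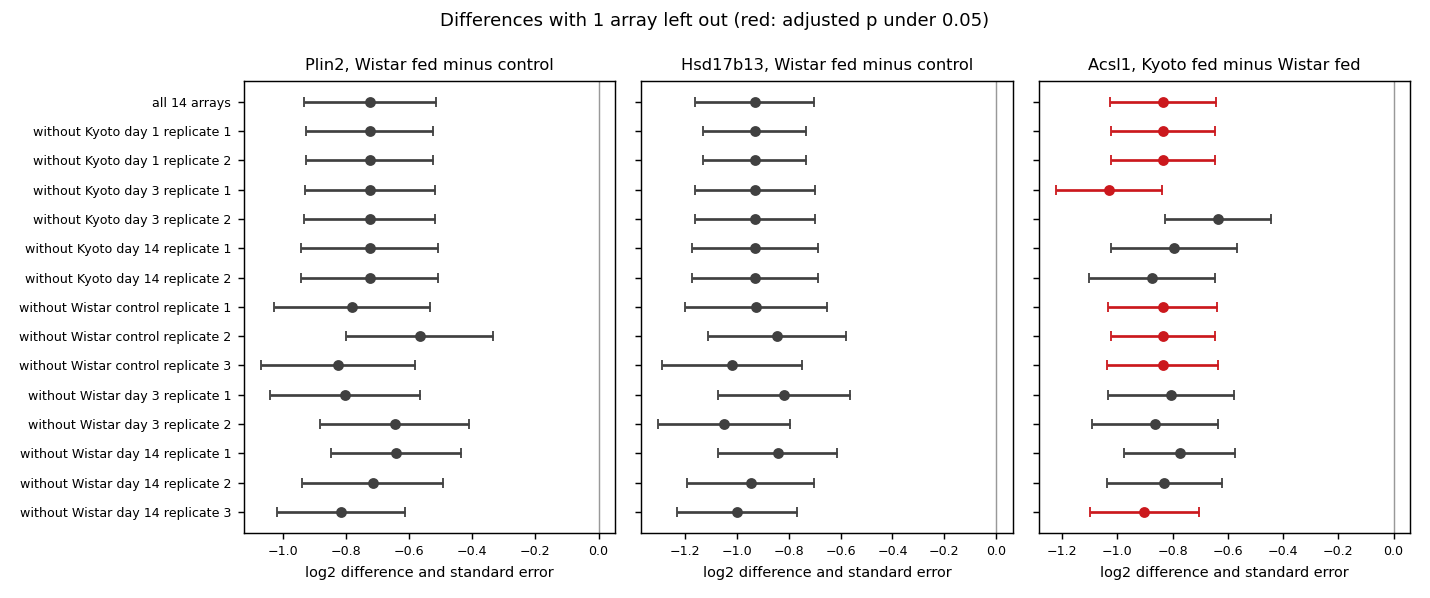
The top row has all 14 arrays and each row under it leaves out 1, and the points and lines give the log2 difference and its SE for 3 results, with an adjusted p under 0.05 in red. Plin2 and Hsd17b13 in fed minus control Wistar livers stay below 0 throughout, between -0.83 and -0.57 and between -1.05 and -0.82, and Acsl1 in fed Kyoto minus fed Wistar livers lies between -1.03 and -0.64 and keeps an adjusted p under 0.05 in 7 of the 14 rows that leave out an array.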

How the data were processed

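Rat liver RNA was read on 14 Affymetrix arrays. The submitters' processing notes name MAS5 for the probe set signals; the deposited table holds intensity values on a linear scale, scaled by the authors so that 11 arrays share a median of 233.1972, and 375 rows are blank on at least 1 of the other 3 arrays. Arrays were grouped by strain and feeding time from the labels. Probe sets were named from the platform annotation (3700 with 1 symbol, 229 with several, 573 with none), and 24 control probe sets were left out. Over 4110 rows, log2 signals were quantile normalized with limma 3.58.1 in R 4.3.3, floored at the 25th percentile (6.85) and reduced to the probe set of highest mean for each gene. The upper 60% of 3181 features (1909) were tested with lmFit on 6 group means (8 residual degrees of freedom), eBayes with trend and Benjamini-Hochberg adjustment at 0.05, in 11 comparisons and an F test. Single genes had exact permutation tests. The fit was tested on simulated data. Alternatives in scaling, floor, filter, probe set choice, batch block, weights and arrays are given at the end. Genes were named by rule: the 4 genes, the 3 genes most like each, and in each of 16 lists the genes past the threshold or those with the smallest p. The genes, lists and tests were chosen with earlier results of these data known. Upstream sequences are from RefSeq, build GRCr8, where all 4 genes matched by symbol.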

Additional observations from a re-analysis of the deposited data

How the results depend on the processing

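Of the differences above, Acsl1 in fed Kyoto minus fed Wistar livers (-0.84, adjusted p = 0.0309) was the only call for the 4 genes, and it was lost with the authors' scaling (-0.79, adjusted p = 0.0568), centring on medians (-0.80, 0.0539), no filter on low features (-0.84, 0.0875), the lot batch as a block (-0.88, 0.0798) and an unadjusted exact permutation without both arrays that stood apart (-0.90, p = 0.0556). With 1 array left out it lay between -1.03 and -0.64, with adjusted p between 0.0234 and 0.131. It was lost without Kyoto day 3 replicate 2, either Kyoto array of day 14, either Wistar array of day 3, or Wistar day 14 replicate 1 or 2. Array weights made calls of Hsd17b13 in fed minus control Wistar livers (-0.92, adjusted p = 0.0392) and of Acsl1 at day 3 between strains (-1.32, 0.0208), and Acsl1 there was called without both arrays too (-1.32, 0.0307). Array weights raised the features called in these comparisons to 15 and 45, against 5 and 4 in the fit as set. With all arrays the unadjusted exact permutation gave -0.70 (p = 0.0357) for Plin2 and -0.92 (p = 0.0179) for Hsd17b13 in fed minus control Wistar livers. Without both arrays that stood apart its p was 0.0667 for each gene, the smallest possible there. With 1 array left out Acsl1 at day 3 between strains lay between -1.72 and -0.92 (adjusted p 0.0316 to 0.362), and the adjusted p of the F test of Hsd17b13 between 0.0461 (without Kyoto day 1 replicate 2) and 0.365. The causes were not tested.

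The 33 values that changed sign were uncalled and small. Wistar day 14 minus day 3 turned to -0.0948, -0.0722 and -0.113 for Fabp1 with array weights, without both arrays and in lot batch 1, and to -0.0545 for Plin2 in lot batch 1. Kyoto day 14 minus day 1 turned to 0.0357, 0.0274 and 0.013 for Acsl1 with the authors' scaling, median centring and the mean of probe sets. Kyoto minus Wistar at day 14 turned under the same settings to -0.0901, -0.0962 and -0.0433 for Plin2, and to -0.0929 and -0.0991 for Fabp1 under the first 2 of them. The interaction of Fabp1 turned to 0.0499 with array weights and 0.0273 without both arrays. With 1 array left out the ranges that cross 0 were, for Fabp1, -0.30 to 0.11 in Wistar day 14 minus control, -0.15 to 0.26 in Wistar day 14 minus day 3, -0.29 to 0.70 in Kyoto day 3 minus day 1, -0.33 to 0.66 in Kyoto day 14 minus day 1, -0.15 to 0.0599 in Kyoto day 14 minus day 3, -0.0703 to 0.342 in Kyoto minus Wistar at day 14 and -0.31 to 0.11 for the interaction. They were -0.42 to 0.066 for Plin2 in Kyoto day 14 minus day 3, -0.0973 to 0.251 for Plin2 in Kyoto minus Wistar at day 14, -0.0759 to 0.378 for Hsd17b13 in Wistar day 14 minus day 3, and -0.158 to 0.0559 for Acsl1 in Kyoto day 14 minus day 1.

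The 3 arrays with no lot batch, set against each other, gave smaller differences for day 14 minus control in Wistar livers (-0.0141 for Plin2 and -0.38 for Hsd17b13), for fed minus control (-0.42 for Plin2 and -0.49 for Hsd17b13) and for Hsd17b13 at day 3 (-0.60), 0.81 for Plin2 in day 14 minus day 3, and the opposite sign for Acsl1 in day 14 minus control (-0.11, against 0.27 with all arrays); this and lot batch 1 alone were chosen after seeing the data. In the 1350 other recomputed values direction and side of the threshold were kept, or the value moved less than its spread. The number of features called in fed Kyoto minus fed Wistar livers was 62, and 13 to 92 with 1 array left out and 1 to 135 under other settings; in fed minus control Wistar livers it was 5, and 0 to 14 and 0 to 15. Other uncalled differences also moved by over 1.5 times: with 1 array left out, Kyoto minus Wistar at day 3 lay between 0.29 and 0.77 for Plin2 and between 0.45 and 0.90 for Hsd17b13, Kyoto minus Wistar at day 14 between 0.0784 and 0.401 for Hsd17b13 and between -0.49 and -0.23 for Acsl1, fed Kyoto minus fed Wistar between 0.18 and 0.42 for Plin2, and the interaction of Acsl1 between 0.57 and 1.37. No paired analysis was possible because the replicate numbers only name the arrays. With 2 or 3 arrays a group, a difference has to be large to pass over 1909 features, and signals under the floor of 115.1 carry no order.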

Other observations

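The arrays with the most unlike Fabp1 signals within a group were those of Kyoto livers at day 1, at 8992 and 17842, and Sult2a1, the sulfotransferase whose signal went most closely with Fabp1, was at 11.35 and 13.42 in log2 on the same arrays. At day 14 in Wistar livers the array lowest for Fabp1 (replicate 1, 8890) was also the lowest of all 14 for Sult2a1 (10.61), and the array labelled Wistar control 2 was the highest for Sult2a1 (13.53).

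Hsd3b5, which went most closely with Acsl1, had 10.47 and 9.82 in Kyoto livers at day 3 and 10.88 and 11.53 at day 14, against 11.43 and 10.99 in Wistar livers at day 3, with a range of 10.99 to 11.43 over all fed Wistar arrays. The Kyoto arrays of day 3 lay below all fed Wistar arrays, and those of day 14 overlapped them.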
